A study of Homo sapiens with 4 samples.

Results

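The carbonic anhydrase genes were examined in RNA-seq of 4 human prostate cancer cell lines, with 1 library per line. The genes were chosen by name, with the counts of CA1 and CA2 in these libraries already known, so their values are a description and no difference among them is tested. Of 10 genes named, 9 had a row among the 22637 genes of the deposited table, namely CA1, CA2, CA3, CA5B, CA8, CA11, CA12, CA13 and CA14. CA9 was not analysed here.

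LNCaP is an androgen-responsive prostate adenocarcinoma line, described as castration-sensitive, while C4-2B, a derivative of LNCaP, grows as a castration-resistant line. LN-OlapR comes from LNCaP and 2B-OlapR from C4-2B, and both were selected in olaparib at concentrations stepped up over time and then kept in it. Olaparib is an inhibitor of the DNA repair enzymes PARP1 and PARP2. By the deposited description all lines were plated untreated, with no selecting drug, for 48 hours before RNA was taken, while the study's methods give a longer time and do not mention the drug at that step. Each resistant line was set against its parental line (the 2B pair and the LN pair), and C4-2B against LNCaP. That last comparison shares a library with each pair, and each resistant state is represented by 1 derived line, so the resistant state and anything else that set those cultures apart cannot be told from each other.

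Carbonic anhydrases are zinc enzymes that interconvert carbon dioxide and water with bicarbonate and a proton. They differ mainly in where they act: CA1, CA2, CA3 and CA13 are cytosolic, CA5B is mitochondrial, and CA12 and CA14 sit in the cell membrane with the active site outside the cell. CA8 and CA11 are carbonic anhydrase-related proteins, which lack the zinc-binding residues needed for catalysis. CA1 is best known from red blood cells, CA2 from kidney and bone-resorbing cells, and CA3 from muscle and fat.

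Levels are given as normalized CPM, the CPM of a library after TMM scaling (a library's counts divided by its scaled size), and every 95% interval covers nothing but counting error. The libraries held between 19950537 and 26394267 counts, and 3 counts, the limit that a count of 0 allows, came to between 0.112 and 0.147 normalized CPM. All 10 prostate luminal markers looked up, among them FOXA1 and HOXB13, were present in every library, with summed levels from 3979 to 7267. The library labelled LNCaP stood apart for KLK3, the gene of prostate-specific antigen, which was 50.5-fold higher in LN-OlapR. Of the basal markers, KRT14 had a row, at 0.112 to 0.557, and of the fibroblast and leukocyte markers COL1A1, at 7.14 to 16.1.

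CA1 was the most abundant carbonic anhydrase transcript by counts in 2B-OlapR and was almost absent elsewhere. LNCaP and LN-OlapR had 0 counts each, C4-2B had 4, and 2B-OlapR had 1837. In 2B-OlapR this was 88.7 normalized CPM (95% Wilson interval 84.7 to 92.8), against 0.195 (0.076 to 0.503) in C4-2B. The fold was 454 (exact interval 177 to 1666), and the log2 ratio 8.66 with a pseudocount of 0.5. As RNA was measured in bulk, more cells with CA1 mRNA and more CA1 mRNA per cell cannot be told apart.

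CA2, which encodes the fast cytosolic enzyme, showed the same pattern. LNCaP and LN-OlapR again had 0 counts, C4-2B had 2 and 2B-OlapR had 1804, where the level of CA2 was 87.1 normalized CPM (83.1 to 91.2). The ratio of 2B-OlapR to C4-2B was 891-fold (246 to 7361), with a log2 ratio of 9.48. Of the 15527 genes that averaged at least 1 normalized CPM in the 2B pair, CA2 ranked 1 and CA1 ranked 2 by log2 ratio. These ranks come from the counts with which both were chosen and rest on 2 and 4 counts in C4-2B. The counting intervals of the 2 ratios overlapped, and both genes reached that average only through 2B-OlapR. Among all genes of the table, 2 had at most 4 counts in each of the other libraries and at least 50 normalized CPM in 2B-OlapR, and these were CA1 and CA2. The limits of that count were set after the values of both were seen.

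CA3 and CA13, the other cytosolic members, were also higher in 2B-OlapR. For CA3, 2B-OlapR had 156 counts, C4-2B had 2 and LNCaP and LN-OlapR had 0, a ratio of 77.0-fold (21.0 to 642) in the 2B pair. CA13 differed from the other cytosolic members in having counts in every library: LNCaP had 36, LN-OlapR 50, C4-2B 253 and 2B-OlapR 1427. The levels of CA13 were 1.34, 2.14, 12.4 and 68.9 normalized CPM in that order. Its log2 ratio was 2.48 (2.28 to 2.68) in the 2B pair, against 0.67 (0.03 to 1.34) for LN-OlapR over LNCaP, and 3.19 (2.70 to 3.75) between C4-2B and LNCaP. CA13 was thus already 9.23-fold (6.49 to 13.5) higher in the castration-resistant parental line than in LNCaP, and 5.57-fold higher again in its resistant subline. Its log2 ratio in the 2B pair exceeded that in the LN pair by 1.80, with a counting interval of 1.16 to 2.45.

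**Figure D1:**
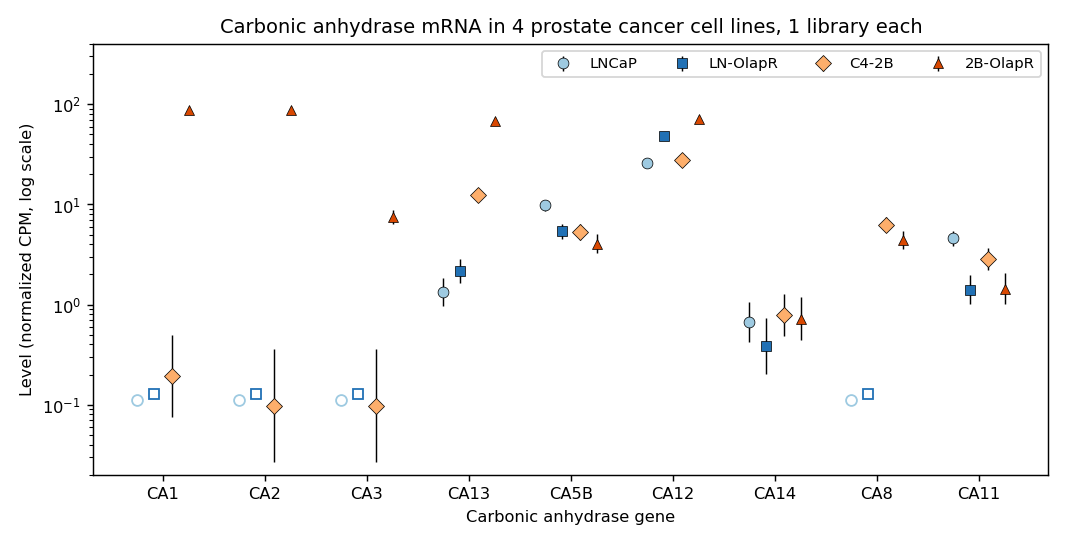
Level of each carbonic anhydrase gene in normalized CPM (log scale) in the 4 libraries, with 95% Wilson intervals as bars; open symbols are counts of 0, drawn at the level of 3 counts. CA1, CA2 and CA3 are at or near the limit in every library except 2B-OlapR, whereas CA12 is between 25.8 and 71.1 in all of them.

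The 4 cytosolic genes lie next to each other in the genome. In the RefSeq annotation of GRCh38 they fill 236 kb of chromosome 8, from 85245458 to 85481493, in the order CA13, CA1, CA3 and CA2. The antisense gene CA3-AS1 overlaps the bodies of CA3 and CA2. All 58 of its counts came from 2B-OlapR, and its level there was at least 19.1-fold higher than the 3 counts that 0 allows in C4-2B. Strand handling in the counting step is not given in the sources used here, so reads of CA3-AS1 and of the genes it overlaps cannot be told apart.

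The genes flanking this cluster did not share its rise. On the CA13 side, RBIS went from 649 counts in C4-2B to 902 in 2B-OlapR, a log2 ratio of 0.46, and E2F5, which encodes a cell cycle transcription factor, had 215 and 222, a log2 ratio of 0.03. On the CA2 side the next gene of the table past the filter, WWP1, a ubiquitin ligase gene, lay 861 kb away with a log2 ratio of 0.21, and RMDN1 followed with -0.26. Within 2 Mb of the centre of the cluster the table held 12 other genes that could be matched by name to RefSeq. Of these, 7 passed the filter for the 2B pair, with a median log2 ratio of 0.03. The exception among these 7 was RALYL, named after its values were seen, which fell from 222 counts in C4-2B to 3 in 2B-OlapR and from 557 in LNCaP to 13 in LN-OlapR. The levels of these neighbours by library show a step on the CA13 side. On the CA2 side the nearest gene past the filter lay 861 kb away, so a step there cannot be placed at the edge of the cluster.

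**Figure D2:**
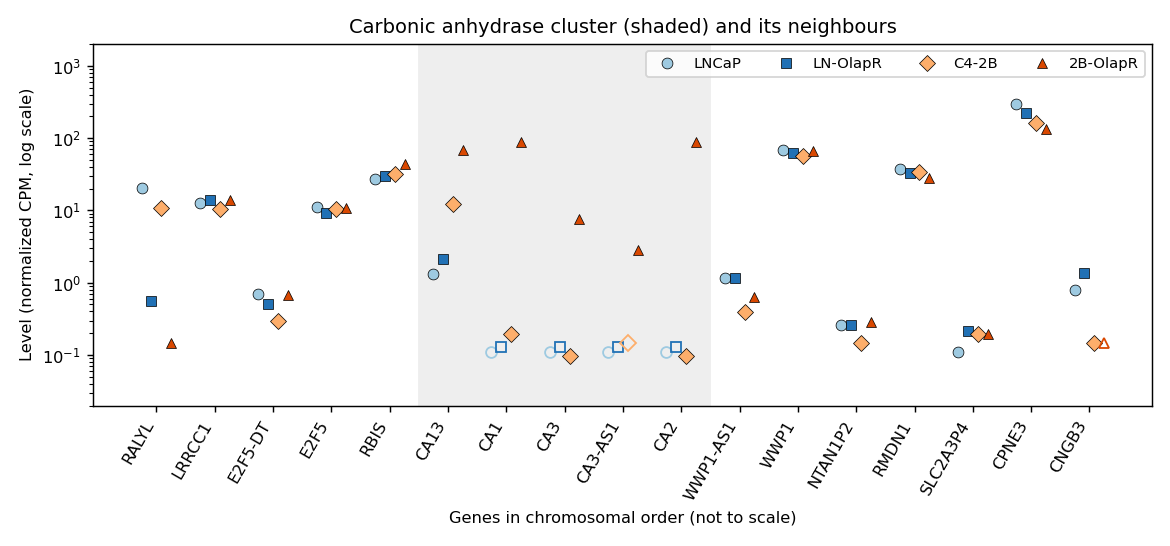
Level in normalized CPM (log scale) of every gene of the table matched by name to RefSeq within 2 Mb of the centre of the carbonic anhydrase cluster, in chromosomal order and not to scale, with the cluster shaded and counts of 0 drawn open at the level of 3 counts. Inside the shaded block 2B-OlapR lies above the other libraries for all 5 genes, whereas E2F5, RBIS, WWP1 and RMDN1 differ little between the libraries.

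The cytosolic genes resemble each other in sequence, so the stretches they share were counted. Among GENCODE release 29 transcripts read in their own direction, no stretch of 50 bases of CA2 or CA3 occurred in another gene. That is a share of 0%, and for CA1 and CA13 the shares were 0.379% and 0.16%. The opposite direction was not searched, so overlap with the antisense gene CA3-AS1 could not appear in these shares. In red blood cells CA1 accompanies haemoglobin, and erythroid markers were therefore looked up. Of 11 markers, HBA1 and KLF1 had a row, and their summed level was 0.820 normalized CPM in 2B-OlapR and 3.18 in C4-2B. HBA1 itself went from 60 counts in C4-2B to 6 in 2B-OlapR. The other markers of that list were not analysed here, and the part of such cells in the CA1 level was not tested.

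Outside this cluster, CA8 separated the libraries in another way. CA8 lies on the same chromosome, outside the cluster, and encodes a catalytically inactive protein that binds the inositol trisphosphate receptor ITPR1. C4-2B had 129 counts and 2B-OlapR 91, whereas LNCaP and LN-OlapR both had 0. The level in C4-2B, 6.30 normalized CPM (5.31 to 7.49), was at least 56.5-fold higher than the 3 counts that 0 allows in LNCaP. Between 2B-OlapR and C4-2B the log2 ratio was -0.52 (-0.92 to -0.12). CA8 was thus detected in both lines of C4-2B origin and in neither LNCaP nor LN-OlapR, while CA1, CA2 and CA3 exceeded 4 counts in 2B-OlapR only.

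CA11, the other inactive member, was lower in both resistant lines. LNCaP had 123 counts against 33 for LN-OlapR, and C4-2B had 58 against 30 for 2B-OlapR. The level fell from 4.58 to 1.41 normalized CPM in the LN pair, a log2 ratio of -1.68 (-2.29 to -1.13), and from 2.83 to 1.45 in the 2B pair, a log2 ratio of -0.96 (-1.66 to -0.31). The second value lies just short of the 2-fold limit. Between the parental lines, C4-2B was below LNCaP by a log2 ratio of -0.68 (-1.17 to -0.23). The difference between the pairs, 0.72 on the log2 scale, had a counting interval of -0.12 to 1.56, which includes 0. At their lower levels LN-OlapR and 2B-OlapR were at nearly the same value, and their Wilson intervals overlapped, 1.01 to 1.99 and 1.01 to 2.07.

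CA5B encodes a mitochondrial carbonic anhydrase, which supplies bicarbonate to carboxylases of that compartment. LNCaP had 263 counts and LN-OlapR 126, and C4-2B had 108 and 2B-OlapR 84. LNCaP was the highest of the libraries, at 9.78 normalized CPM (8.67 to 11.04). The log2 ratio was -0.85 (-1.18 to -0.55) for the LN pair, and -0.38 (-0.81 to 0.04) in the 2B pair, where the interval includes 0. C4-2B was itself below LNCaP, with a log2 ratio of -0.89 (-1.23 to -0.56). The pseudogene CA5BP1, which lies beside CA5B, had a log2 ratio of -0.27 for the LN pair, against -0.13 for the 2B pair. As 2.16% of the stretches of 50 bases of CA5B occur in CA5BP1, and 7.55% of those of CA5BP1 in CA5B, some reads of the pair can be split between them and the CA5B values are uncertain to that extent.

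CA12, a membrane enzyme that acts on the cell surface and is induced by hypoxia and by oestrogen in other epithelia, had the most counts of all members in LNCaP, LN-OlapR and C4-2B. LNCaP had 694 counts against 1116 for LN-OlapR, and C4-2B had 569 against 1473 for 2B-OlapR. The levels were 25.8 normalized CPM (24.0 to 27.8) in LNCaP and 27.8 (25.6 to 30.2) in C4-2B, so the parental lines overlapped, with a log2 ratio of 0.11 (-0.06 to 0.27). Both resistant lines were above them, with 47.8 (45.1 to 50.7) in LN-OlapR and 71.1 (67.5 to 74.8) in 2B-OlapR. The fold was 1.85 (1.68 to 2.04) for the LN pair, and 2.56 (2.32 to 2.82) for the 2B pair, or 0.89 and 1.35 on the log2 scale. The log2 ratio was higher in the 2B pair by 0.46 (0.27 to 0.66).

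The neighbours of CA12 went another way in the 2B pair. The genes of the table on one side, APH1B, RAB8B and RPS27L, had log2 ratios of -1.03, -1.22 and -1.39 in 2B-OlapR against C4-2B. On the other side USP3 and USP3-AS1 had -0.48 and -0.33, and the nearest gene, LINC02568, stayed at no more than 5 counts per library. In the LN pair APH1B, RAB8B and RPS27L had 0.10, -0.64 and 0.31.

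The stretches before the transcription starts of CA12 and CA5B are shown because these members, both expressed in all libraries, went in opposite directions in the LN pair. Both are the 250 bases upstream of the RefSeq start on GRCh38.p14, with each CG dinucleotide in capitals. The CA12 stretch is on the minus strand at chr15:63381847-63382096 and holds 13 CG dinucleotides, and the CA5B stretch is on the plus strand at chrX:15738020-15738269 and holds 15, against a median of 11 over 27305 promoters.
CA12: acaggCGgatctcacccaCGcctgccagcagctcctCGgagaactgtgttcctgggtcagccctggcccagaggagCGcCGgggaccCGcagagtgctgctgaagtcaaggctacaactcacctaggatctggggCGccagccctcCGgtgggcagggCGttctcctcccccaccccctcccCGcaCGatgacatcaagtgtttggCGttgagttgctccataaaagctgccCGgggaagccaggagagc
CA5B: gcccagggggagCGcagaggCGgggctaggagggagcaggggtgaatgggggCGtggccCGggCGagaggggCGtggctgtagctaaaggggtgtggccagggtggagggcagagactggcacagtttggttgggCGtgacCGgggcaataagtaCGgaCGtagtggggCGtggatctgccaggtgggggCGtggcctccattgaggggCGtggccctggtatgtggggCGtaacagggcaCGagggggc
The G and C content was 64.8% for CA12 and 69.2% for CA5B, and the median over all promoters was 58.0%. Both strands were searched for the hypoxia response core ACGTG, the GC box GGGCGG and the nuclear receptor half-site AGGTCA. The androgen receptor half-site TGTTCT and the TATA box TATAAA were also searched. None of these letters was found in either stretch or in that of CA14, a count of 0. Only exact letters were matched, so variants of a motif were not counted. In all promoters of this length the shares were 18.7%, 42.3%, 12.1%, 12.4% and 11.1% in the same order.

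CA14, the other membrane member with a row, was near the limit of detection. LNCaP had 18 counts, LN-OlapR 9, C4-2B 16 and 2B-OlapR 15, and all of its Wilson intervals overlapped. A difference of CA14 was not detectable at this depth, with a log2 ratio of -0.11 (-1.23 to 0.9997) for the 2B pair, and one of -0.76 (-2.13 to 0.43) for the LN pair. CA4, a membrane-anchored enzyme outside the named genes, had 18 counts in 2B-OlapR, compared with 6 in C4-2B, 3 in LNCaP and 0 in LN-OlapR.

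**Figure D3:**
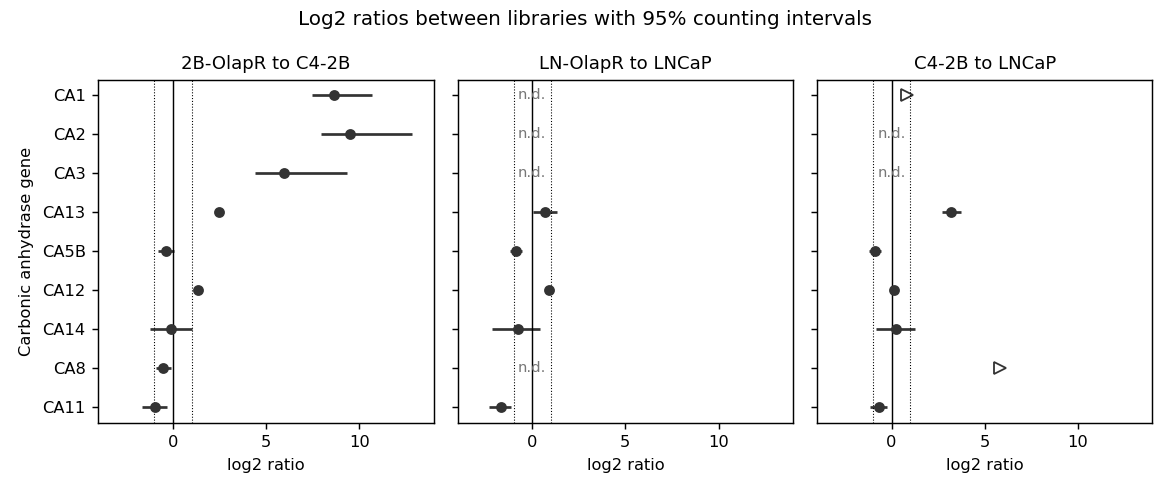
Log2 ratio of each carbonic anhydrase gene in the 2B pair, the LN pair and C4-2B against LNCaP, with exact 95% counting intervals as bars; open arrowheads are lower bounds against a count of 0, n.d. marks genes at or under 3 counts in both libraries, and dotted lines mark 2-fold. CA12 and CA13 lie to the right of 0 in both pairs, and CA11 to the left.

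With a limit of 2-fold and an average of 1 normalized CPM or more across the pair, 8 of the 9 genes entered the 2B pair. CA1, CA2 and CA3 entered only through their level in 2B-OlapR. Of the 8, 5 were at least 2-fold higher in 2B-OlapR (CA1, CA2, CA3, CA12 and CA13), where the share of all genes was 4.42%, and 0 were 2-fold lower, where it was 5.65%. In the LN pair 4 genes entered, and 0 were 2-fold higher and 1, CA11, was lower, beside 4.64% and 4.83% of all genes. Between C4-2B and LNCaP 5 genes entered, and 2, CA8 and CA13, were higher in C4-2B and 0 lower, beside 8.00% and 7.18% of all genes. CA8 entered this comparison only through its level in C4-2B. Since the genes were chosen with these values known, the counts describe them and nothing more is read from the shares.

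Levels of different genes were compared per kilobase of the longest coding transcript in GENCODE release 29. CA12 was the highest member in LNCaP, LN-OlapR and C4-2B, with 4.03, 7.46 and 4.34 normalized CPM per kb. In 2B-OlapR it was the fourth, at 11.1, after CA2 with 50.7, CA1 with 31.8 and CA13 with 18.1. The order of CA1 and CA2 there rests on transcript length, since their counts were close and the lengths used were 2785 bases for CA1 and 1717 for CA2. In LNCaP CA11, with 2.48, and CA5B, with 1.43, came after CA12. In LN-OlapR CA5B and CA11 followed at 0.790 and 0.767, with intervals that overlapped. In C4-2B CA13 came next to CA12 at 3.24, followed by CA8 and CA11, whose intervals overlapped, at 1.65 and 1.54. In 2B-OlapR CA3 came after these at 4.30, and neighbouring members from CA8, at 1.15, through CA11 and CA5B to CA14, at 0.301, had overlapping intervals.

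Summed over the 9 genes, carbonic anhydrase mRNA reached 118.8 normalized CPM per kb in 2B-OlapR, compared with 12.05 in C4-2B, 8.57 in LNCaP and 9.74 in LN-OlapR. The cytosolic genes of the cluster made up 88.3%, 28.4%, 4.10% and 5.77% of these sums in that order. By counts alone, the cluster held 5224 of 6917 carbonic anhydrase counts in 2B-OlapR, compared with 261 of 1141 in C4-2B, 36 of 1134 in LNCaP and 50 of 1334 in LN-OlapR. The first share was 75.5% (Wilson interval 74.5% to 76.5%), and that of C4-2B 22.9% (20.5% to 25.4%).

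**Figure D4:**
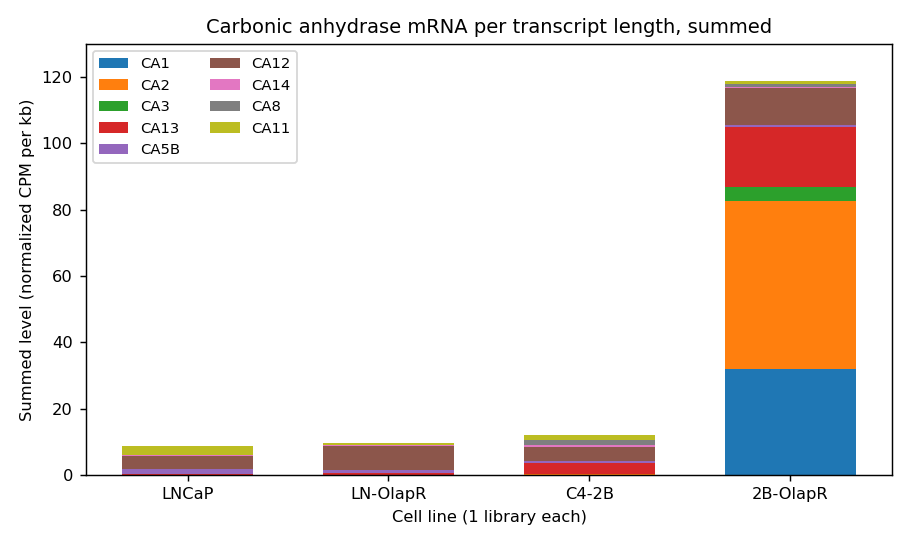
Summed level of the 9 carbonic anhydrase genes in normalized CPM per kilobase of transcript, stacked by gene, in the 4 libraries. The sum is 118.8 in 2B-OlapR, mostly CA2, CA1 and CA13, and between 8.57 and 12.05 in the other libraries.

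The genes whose pattern was most like each member were found by the root mean square difference of log2 levels, centred over the 4 libraries, among the 15596 genes that averaged 1 normalized CPM or more. CA1 and CA2 were closest to each other, with a difference of 0.36. The next for CA1 was TRIB2, a pseudokinase gene, at 1.41, with 48 counts in C4-2B, 5219 in 2B-OlapR and 0 in the other libraries. CA3 was closest to BST2, an interferon-induced membrane protein gene, at 0.66, and CA13 to PLA2G4A, which encodes a cytosolic phospholipase, at 0.21, with TMEM45B also at 0.21 and SLPI, a secreted protease inhibitor gene, at 0.36. The closest gene to CA12 was GHR, the growth hormone receptor gene, at 0.06, with 23.2, 39.9, 25.1 and 59.3 normalized CPM. NECTIN2, an adhesion molecule gene, was among the closest to CA11 at 0.06. DDIT4L was closest to CA8 at 0.10, with 0, 0, 114 and 78 counts. These differences rest on 4 libraries and carry no test. CA1, CA2 and CA3 had at most 4 counts outside 2B-OlapR, and CA8 had 0 in LNCaP and LN-OlapR. Their differences therefore rest in part on the pseudocount. So does that of CA13 from PLA2G4A, a gene with 2 counts in LNCaP and 4 in LN-OlapR. The closeness of CA1 and CA2 follows from the counts with which they were chosen and is not a separate result.

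Carbonic anhydrases act together with transporters of bicarbonate, protons and lactate, and these were examined as lists. Of 17 bicarbonate transporter genes, 7 passed the filter in the 2B pair, with 1 at least 2-fold higher and 0 lower, beside 4.42% and 5.65% of all genes, and a median log2 ratio of -0.11, beside -0.000259 for all genes. The one past the limit was SLC4A4, a sodium bicarbonate cotransporter. It went from 746 counts in C4-2B to 2373 in 2B-OlapR, a log2 ratio of 1.65, and had -0.33 in the LN pair. Its level was 76.7 normalized CPM in LNCaP, 36.5 in C4-2B and 114.5 in 2B-OlapR, and C4-2B over LNCaP had a log2 ratio of -1.07. SLC4A2, an anion exchanger, was the most abundant by counts in C4-2B, with 293 normalized CPM, and had a log2 ratio of -0.31. In the LN pair 1 of 7 was higher, beside 4.64% of all genes, namely SLC4A3 with a log2 ratio of 1.46, and the median was -0.11, beside -0.00404 for all genes.

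Of 17 proton and lactate transporter genes, 13 passed the filter in each pair. In the 2B pair 1 was at least 2-fold higher and 2 lower, beside 4.42% and 5.65% of all genes, and the median was 0.29, beside -0.000259 for all genes. The sodium/proton exchanger SLC9A7 had a log2 ratio of 1.01, and 2 lactate transporters were lower, SLC16A7 with -2.65 and SLC16A3 with -1.38. In the LN pair SLC16A3 was the gene past 2-fold, higher in LN-OlapR with 114 counts against 32 for LNCaP, beside 4.64% of all genes, and the median was 0.04.

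Genes induced by hypoxia-inducible factors were listed because CA9 and CA12 belong to that response in other cells. In the 2B pair 24 of 27 passed the filter, 3 had a log2 ratio above 0, 7 were at least 2-fold lower, where the share of all genes was 5.65%, and 0 higher, with a median of -0.60. DDIT4, an inhibitor of mTOR signalling, had the lowest value, -1.84, followed by PFKFB4 with -1.74, HILPDA with -1.39 and LOX with -1.26. In the LN pair 20 of 24 were above 0 and 2 were at least 2-fold higher, NDRG1 with 1.40 and SLC2A3 with 1.31, beside 4.64% of all genes, and the median was 0.30. SLC2A3 entered only through its level in LN-OlapR, 2.14 normalized CPM against 0.856 in LNCaP. The counting interval of its log2 ratio was 0.6 to 2.1. Set against LNCaP, C4-2B was itself higher for this list, with 23 of 25 genes above 0 and a median of 0.46. Of the 25, 6 were at least 2-fold higher and 0 lower, beside 8.00% and 7.18% of all genes. Among these, LOX entered only through its level in C4-2B, 16.2 normalized CPM against 0.298 in LNCaP. The summed normalized CPM of the list was 2843 for C4-2B and 2265 for 2B-OlapR. For LN-OlapR the sum was 2522, and LNCaP had the lowest, 2117. The sum for 2B-OlapR thus lay below that of C4-2B but above that of LNCaP. LDHA and PGK1 had the highest levels of the list, 748.0 and 388.5 in LNCaP and 788.8 and 508.0 in 2B-OlapR. Both weigh heavily in the sums, so the order of LNCaP and 2B-OlapR need not hold for the rest of the list. CA12 was higher in both resistant lines, beside this list with a median under 0 in the 2B pair and over 0 in the LN pair.

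Of 12 regulators of CA9 and CA12, 9 passed the filter in each pair. In the 2B pair 1 was at least 2-fold higher and 1 lower, beside 4.42% and 5.65% of all genes, with a median of -0.06. In the LN pair 0 were higher and 2 lower, beside 4.64% and 4.83% of all genes, with a median of -0.35. HIF1A itself had a log2 ratio of -0.06 for the 2B pair, against -0.41 for the LN pair. EPAS1, which encodes a second hypoxia-inducible factor subunit, was past 2-fold in the 2B pair, with 36 counts in 2B-OlapR against 13 for C4-2B. It entered that pair only through its level in 2B-OlapR, 1.74 normalized CPM against 0.635 in C4-2B. The counting interval of its log2 ratio, 0.50 to 2.49, reaches below the 2-fold limit. TFAP2A fell in both pairs, with -1.05 and -1.04, and ARNT2 in the LN pair, with -1.07. GATA3 had between 1 and 13 counts in the libraries and did not pass, and ESR1 was not analysed here.

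Enzymes that use or sense bicarbonate were the last list, mainly carboxylases but also carbamoyl phosphate synthetases, with 10 genes of which 9 passed. In the 2B pair 1 was at least 2-fold lower, beside 5.65% of all genes, namely CPS1, which makes carbamoyl phosphate in mitochondria, with a log2 ratio of -1.42 and a list median of -0.31. In the LN pair 1 was at least 2-fold higher, beside 4.64% of all genes, namely MCCC2, a subunit of methylcrotonyl-CoA carboxylase, with 4125 counts in LNCaP and 23163 in LN-OlapR, and the median was -0.14. Of the 3 inositol trisphosphate receptor genes, ITPR1, the partner of CA8, had log2 ratios of -0.63 and -0.48 in the 2B and LN pairs. ITPR2, with 1.79 and 2.42, was the 1 of 3 at least 2-fold higher in each pair, beside 4.42% and 4.64% of all genes. ITPR3 had 0.34 and 0.92.

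**Figure D5:**
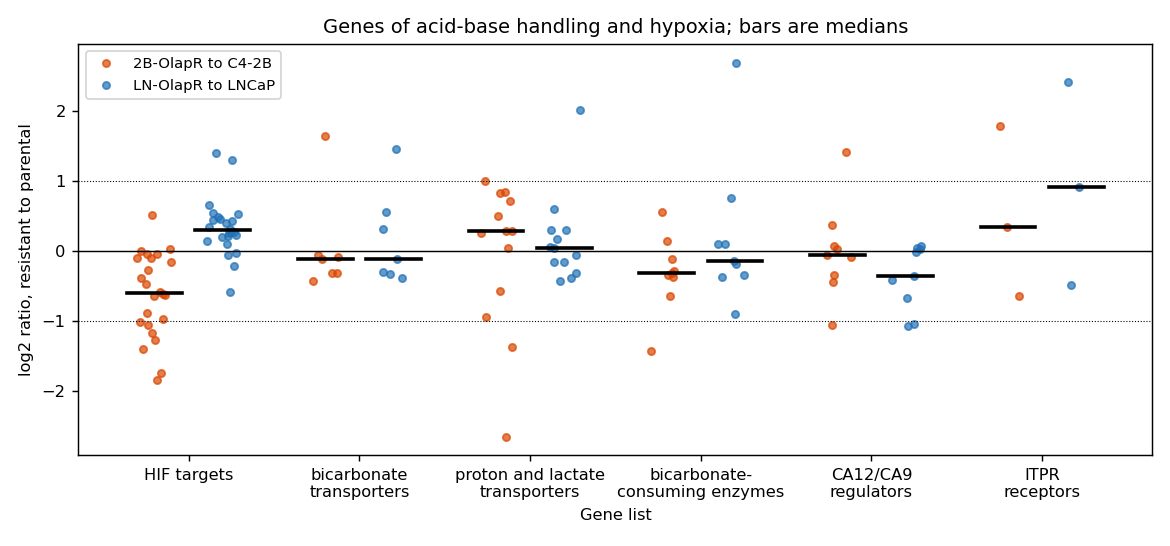
Log2 ratio of resistant to parental line for each gene of the lists that averaged 1 normalized CPM or more in the pair, with medians as bars and dotted lines at 2-fold. The median of the hypoxia-inducible factor targets is -0.60 for the 2B pair, against 0.30 for the LN pair.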

How the data were processed

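RNA from 4 cell lines was sequenced as stranded mRNA libraries from 100 ng of RNA, with 1 library per line. The authors deposited estimated counts per gene, of which 46.2% are not whole, for genes summing to at least 10.0 over the libraries. The submitters' processing notes name STAR, Partek and GRCh38, while versions, roles and annotation are not given in the sources used here.

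The estimated counts were rounded and scaled by TMM (edgeR 4.0.16, R 4.3.3), and other steps used Python 3.11.15 with SciPy 1.17.1. Log2 ratios took a pseudocount of 0.5 counts, and counts and medians used genes averaging at least 1 normalized CPM in a pair. Levels and shares have Wilson intervals, ratios exact conditional binomial intervals without pseudocount, and differences between pairs normal intervals. Each comparison has 1 library a side, so no model was fitted to it and no p-value computed. An additive fit of resistance and background over all 4 libraries was not run. The steps were run on simulated counts that held counting error only. That run has no variation between cultures and so says nothing about it.

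The genes and lists were chosen with earlier results of these data known. The genes named are the carbonic anhydrases, up to 4 list genes past 2-fold per pair or else the highest and lowest, up to 3 genes nearest in pattern, the 3 neighbours on either side and markers. SLC4A2, HIF1A, GATA3, ESR1, ITPR1, ITPR3 and RALYL fall outside that rule and were added once their values had been seen. Positions and promoters came from RefSeq on GRCh38.p14, with promoters matched for 3 genes. Genes of the table not matched by name to RefSeq could not appear among the neighbours. Alternatives were scaling by total counts, DESeq2 1.42.0 size factors or upper quartile, a pseudocount of 2, no rounding, a minimum mean of 0.1 or 10, and a 4-fold limit.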

Additional observations from a re-analysis of the deposited data

Results flagged for a closer look

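SLC16A3, a lactate transporter gene of the proton and lactate list, went in opposite directions in the 2 pairs. Its log2 ratio was -1.38 in the 2B pair, from 7368 counts in C4-2B to 2876 in 2B-OlapR, and 2.02 in the LN pair, from 32 counts in LNCaP to 114 in LN-OlapR. The difference between the pairs was not tested, as each line has 1 library.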

How the results depend on the processing

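The 19 log2 ratios of carbonic anhydrases that could be computed stayed within their counting intervals, with no change of sign, under total counts, DESeq2 size factors, upper quartile factors, a pseudocount of 2 and counts left unrounded. The largest shift was 0.676 with the pseudocount of 2 and at most 0.0842 under the other settings. The 5 genes at least 2-fold higher in the 2B pair numbered 4 with a minimum mean of 10 and 4 at a 4-fold limit. The 1 gene lower in the LN pair became 0 under each of these, and the 2 higher in C4-2B than in LNCaP became 0 with the minimum of 10, all by construction, since fewer genes enter or the limit is stricter. For all genes, higher and lower, a minimum mean of 0.1 gave 1956 and 2220 for 2B-OlapR over C4-2B, 2011 and 1983 for LN-OlapR over LNCaP, and 2809 and 2495 between the parental lines. A minimum of 10 gave 163 and 256, 196 and 192, and 424 and 348, and a 4-fold limit 210 and 218, 219 and 225, and 452 and 289. Each comparison reported sets 1 library against 1, so no paired analysis was made within it and no replicate could be left out. A fit of resistant against parental lines with background as a block, which asks for a shift common to both pairs, was not run. Depth limits CA14, CA4 and the low levels of CA1, CA2 and CA3 in C4-2B, whose folds rest on 2 to 4 counts.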

Other observations

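Near other carbonic anhydrase genes, some neighbours had ratios like those of the member and others did not. Beside CA5B, with log2 ratios of -0.38 (2B pair) against -0.85 (LN pair), ZRSR2 had -0.23 and -0.48, and AP1S2 had -0.30 and -0.65. Of the genes around CA8, whose log2 ratio was -0.52 in the 2B pair, NSMAF had -0.48, CHD7 -0.53 and RAB2A 0.10. PLEKHO1, which lies near CA14, went from 143 counts in C4-2B to 40 in 2B-OlapR, and from 173 in LNCaP to 44 in LN-OlapR, with log2 ratios of -1.84 and -1.76, while CA14 itself was close to the limit of detection. The gene DBP, 0.567 kb from CA11, had log2 ratios of 0.13 and -0.13 in the 2B and LN pairs, whereas those of CA11 were -0.96 and -1.68.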
